A study of Mus musculus with 13 samples.

Results

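The genes described here encode the sarcomere, its Z-disc and the costamere of the mouse heart: 35 genes chosen by symbol, of which 32 had at least 1 annotated probe on the Illumina mouse expression BeadChip. A gene was kept where a probe had a detection p-value under 0.05 on 3 or more arrays, and 30 of the 35 passed, out of 10410 genes tested in all. Myl7, the atrial regulatory light chain, and Dmd, which encodes dystrophin, stayed below detection: their 4 probes had raw signals between 92.4 and 130.3, and the single detection was 1 Dmd probe on 1 array. No probe was annotated here for Tnnt2, Xirp1 and Smpx, so these 3 were not analysed. All hearts came from male C57BL/6 mice aged 8 to 10 weeks. The groups were 3 mice that received sAcvR2B-Fc 48 hours before doxorubicin (called pretreated below), 5 that received doxorubicin alone and 5 controls injected with PBS. Every agent was given intraperitoneally, and hearts were collected 20 hours after doxorubicin or PBS. Doxorubicin is an anthracycline used against cancer whose use is limited by damage to the heart, and sAcvR2B-Fc is a soluble activin receptor 2B fused to an antibody Fc part, which binds activins, myostatin and related ligands. No mice that received sAcvR2B-Fc without doxorubicin were analysed here, so the effect of the receptor alone cannot be told apart from its effect on top of doxorubicin.

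In heart muscle, myosin thick filaments pull on actin thin filaments, whose troponin and tropomyosin make the interaction depend on calcium. Titin spans from the Z-disc to the M-band and acts as a molecular spring, while the Z-disc crosslinks thin filaments through alpha-actinin and holds many proteins that sense stretch. Costameres and intercalated discs tie the Z-discs to the membrane and to neighbouring cells, and the dystrophin and sarcoglycan complex links the cytoskeleton to the matrix outside.

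The 13 arrays each had 15989 to 17939 detected probes, and array pairs correlated at 0.97 to 0.993. The 2 deposited tables disagree on which array belongs to which sample for 8 of the 13 samples, and for 6 of these the array moves to another group. The labels do not say which of the 2 is correct. By the names of the non-normalized table, calls were made for 25, 9 and 128 genes in doxorubicin against control, pretreated against doxorubicin and pretreated against control, and by those of the series matrix for 0 in each; samples were not assigned to groups from these values. Values below use the names of the non-normalized table unless the series matrix names are stated. All 10 cardiomyocyte genes listed outside the 35 were detected, with summed normalized signals of 126137 to 147584 in pretreated, 120726 to 153987 in doxorubicin and 138672 to 155602 in control hearts. With the series matrix names these sums were 147584 to 154643 in pretreated, 120726 to 153987 in doxorubicin and 127934 to 155602 in control hearts. The skeletal muscle genes Myh1, Myh4, Tnnt3, Tnnc2 and Actn3, the atrial genes Sln, Bmp10 and Mybphl and the 5 adipocyte genes were below detection. Other genes of these lists were detected: the atrial Nppa, Gja5, Dkk3, Nr2f2 and Myl4, and the skeletal muscle Tnni2, Mylpf, Atp2a1 and Pvalb. Of these, Nppa averaged 12.82 in pretreated, 13.44 in doxorubicin and 13.36 in control hearts. Its difference of -0.62 ± 0.22 (SE) in pretreated against doxorubicin was -0.23 with the series matrix names. The summed level of 5 neutrophil genes was 468 to 509 in pretreated, 367 to 891 in doxorubicin and 132 to 207 in control hearts. These neutrophil sums were, under the series matrix names, 143 to 492 in pretreated, 181 to 557 in doxorubicin and 132 to 891 in control hearts. The summed level of 3 erythroid genes was 6264 to 11454 in pretreated, 7671 to 19016 in doxorubicin and 13384 to 20153 in control hearts. Under the series matrix names the erythroid sums were 8987 to 15262 in pretreated, 6264 to 19016 in doxorubicin and 10989 to 20153 in control hearts. In whole hearts, fewer cells of a type and less RNA per cell cannot be told apart.

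The promoters of 3 members are shown first because each of the 3 was among the 4 members with the smallest p-values in 2 of the comparisons below. Myot also met that rule and is named only. Csrp3 had a second, separate promoter, which is not printed. The stretches cover the 250 bases before the annotated start on the minus strand of GRCm38.p6, from RefSeq, written 5′ to 3′ in gene direction.
Csrp3, chr7:48848052-48848301: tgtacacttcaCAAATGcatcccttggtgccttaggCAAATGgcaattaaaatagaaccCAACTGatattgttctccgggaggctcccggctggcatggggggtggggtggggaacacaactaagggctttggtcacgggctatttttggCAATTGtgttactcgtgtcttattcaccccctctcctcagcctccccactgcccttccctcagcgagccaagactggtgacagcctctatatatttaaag
Ldb3, chr14:34588682-34588931: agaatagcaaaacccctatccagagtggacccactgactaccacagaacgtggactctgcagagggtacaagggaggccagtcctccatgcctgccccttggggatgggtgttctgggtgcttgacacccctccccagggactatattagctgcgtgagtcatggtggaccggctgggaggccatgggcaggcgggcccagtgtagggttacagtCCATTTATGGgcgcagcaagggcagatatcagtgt
Tpm1, chr9:67049214-67049463: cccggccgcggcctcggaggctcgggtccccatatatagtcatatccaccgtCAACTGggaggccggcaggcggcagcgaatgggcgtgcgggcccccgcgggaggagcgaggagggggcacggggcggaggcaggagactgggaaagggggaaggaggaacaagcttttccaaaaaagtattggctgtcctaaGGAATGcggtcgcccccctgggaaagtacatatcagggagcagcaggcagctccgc

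Capitals mark matches, on either strand, to the TATA box (TATAAA), the core of the M-CAT element (CATTCC, bound by TEAD factors), the E-box (CANNTG), the MEF2 site and the CArG box, which is bound by serum response factor. The Ldb3 stretch held a CArG box starting 35 bases before the annotated start, the Tpm1 stretch an M-CAT core at 56 bases and an E-box at 198 bases, and the Csrp3 stretch 4 E-boxes. RefSeq entries were matched for 31 of the 35 members, with 43 promoters in all. The CArG box was found in 20.9% of the 43 promoters, against 1.47% of all 32851 promoters of that length, in Actc1, Dmd, Ldb3, Myl3, Myl7, Myom1, Nebl and Vcl. The MEF2 site was found in 16.3% of them, against 1.69% of all, and the M-CAT core in 27.9%, against 12.6% of all. The E-box was found in 67.4% of them, against 66.2% of all, and the TATA box in 6.98%, against 12.4% of all. Some genes have several overlapping promoters, and a match is a description of the letters, not a bound site.

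None of the 30 tested genes passed an adjusted p under 0.05 in any of the 3 comparisons, and their median differences were 0.07 or less in size on the log2 scale. Among all genes, 0.24% were called in doxorubicin against control, 0.0865% in pretreated against doxorubicin and 1.23% in pretreated against control. At an unadjusted p under 0.05, limma gave 3 members in doxorubicin against control (0 higher, 3 lower), 3 in pretreated against doxorubicin (2 higher, 1 lower) and 4 in pretreated against control (2 higher, 2 lower). The shares of all genes at that level were 12.2% (5.98% higher, 6.27% lower), 11.3% (6.08% higher, 5.26% lower) and 18.3% (10.1% higher, 8.18% lower), and the members' shares of 10%, 10% and 13.3% were no higher. The median log2 difference of the members was -0.05, 0.02 and -0.07 in the same order, and that of all genes 0.00, 0.02 and 0.00. In doxorubicin against control, 11 members were higher and 19 lower; in pretreated against doxorubicin, 16 were higher and 14 lower; in pretreated against control, 10 were higher and 20 lower. When arrays were scaled by their medians in place of quantiles, 22 were higher and 8 lower in doxorubicin against control, while the median of all genes shifted by 0.13. In pretreated against doxorubicin, 11 were higher and 19 lower with that scaling, and likewise with cyclic loess.

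Over the brightest passing probe of each gene, the 95% interval lay within 1.5-fold either way for 25 of the 30 members in doxorubicin against control (83.3%), for 22 in pretreated against doxorubicin (73.3%) and for 20 in pretreated against control (66.7%). For all genes these shares were 77.6%, 66.8% and 62.4%. Within 2-fold lay 30, 28 and 29 of the 30 members. Fewer of the members' single probes were bounded this closely: 40, 31 and 27 of all 60 passing probes lay within 1.5-fold. Under the series matrix names 27, 22 and 21 of the 30 members did. The SD within groups had a median of 0.21 on the log2 scale over the members and 0.22 over all genes. It was lowest for Myoz2, Tnnc1 and Ttn, at 0.09, and highest for Xirp2, at 0.44.

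**Figure D1:**
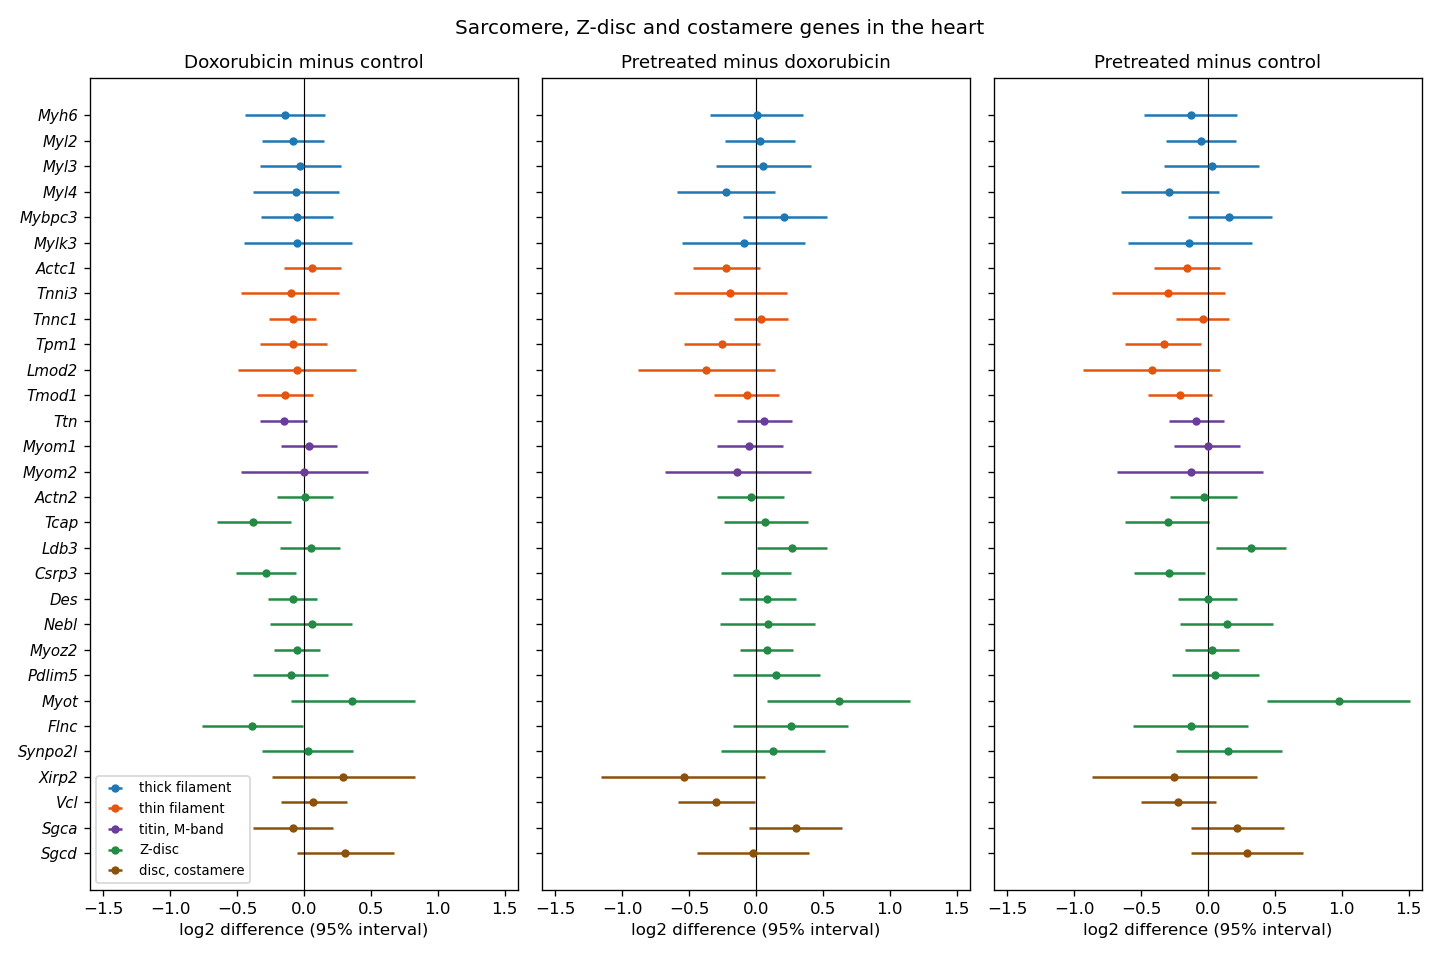
Log2 difference of each of the 30 tested members (point) with its 95% interval (line) from the limma fit, in 3 comparisons, coloured by role. The x axis is the log2 difference and the rows are genes; most intervals include 0, and Myot in pretreated minus control, at 0.98, lies farthest from it.

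Doxorubicin alone against control asks which structural genes differ 20 hours after the drug. The 3 members with an unadjusted p under 0.05 were Tcap, Csrp3 and Flnc, all Z-disc genes and all at lower levels with doxorubicin; their adjusted p-values were 0.233 or above. Tcap, which encodes telethonin and caps the end of titin in the Z-disc, had normalized log2 signals of 14.08, 14.25, 14.25, 13.98 and 14.29 in doxorubicin hearts, against 14.39, 14.56, 14.36, 14.72 and 14.70 in control hearts. All 5 doxorubicin hearts lay below all 5 control hearts. The difference was -0.38 ± 0.13 (SE; limma, adjusted p = 0.233). By the brightest probes, Tcap was the single member of 30 whose groups did not overlap, where 2.85% of all genes had groups that did not overlap and 1.38% lay lower without overlap. The second Tcap probe gave -0.64 ± 0.26 (SE), and 0.15 with the series matrix names. Its groups overlapped: doxorubicin replicate 2 had 12.78, against 12.76 and 12.72 in control replicates 1 and 3.

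Csrp3, which encodes muscle LIM protein, a Z-disc protein tied to stretch sensing, had 14.30, 14.79, 14.29, 14.33 and 14.49 in doxorubicin hearts, against 14.81, 14.70, 14.60, 14.71 and 14.79 in control hearts. The other 4 doxorubicin hearts lay below every control heart, while replicate 2 lay within the control range. The difference was -0.28 ± 0.11 (SE; limma, adjusted p = 0.281), and the other 2 Csrp3 probes gave -0.18 and -0.12. Flnc, which encodes filamin C, an actin crosslinker of Z-discs and costameres, had 11.12, 12.00, 10.97, 11.18 and 11.39 in doxorubicin hearts, against 11.51, 11.85, 11.94, 11.62 and 11.68 in control hearts. Doxorubicin replicate 2 was again the exception: it was the highest of the 10 arrays, and the other 4 doxorubicin hearts lay below all controls. The Flnc difference was -0.39 ± 0.17 (SE; limma, adjusted p = 0.389).

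Doxorubicin replicate 2 decided whether Csrp3 and Flnc were called. Without it, Csrp3 differed by -0.37 (limma, adjusted p = 0.0412) and Flnc by -0.55 (limma, adjusted p = 0.0393), while Tcap stayed at -0.40 with an adjusted p of 0.151. In that fit 332 genes were called, or 3.19% of all, against 25 with all arrays. With the series matrix names, under which this array is still a doxorubicin heart, the differences were 0.07 for Tcap, -0.06 for Csrp3 and -0.01 for Flnc. The lower levels of all 3 rest on the array names of the non-normalized table.

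Sgcd, which encodes delta-sarcoglycan, had the fourth smallest p. It had 5.68, 6.02, 5.64, 5.96 and 5.52 in doxorubicin hearts, against 5.22, 5.99, 5.19, 5.27 and 5.58 in control hearts. The groups overlapped, since control replicates 2 and 5 lay among the doxorubicin hearts. Sgcd had 1 passing probe, near the detection limit, with a median raw signal of 146.8. The median over all probes of an array was 101.5 to 136.3. The difference was 0.31 ± 0.17 (SE; limma, adjusted p = 0.476), and -0.15 with the series matrix names.

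**Figure D2:**
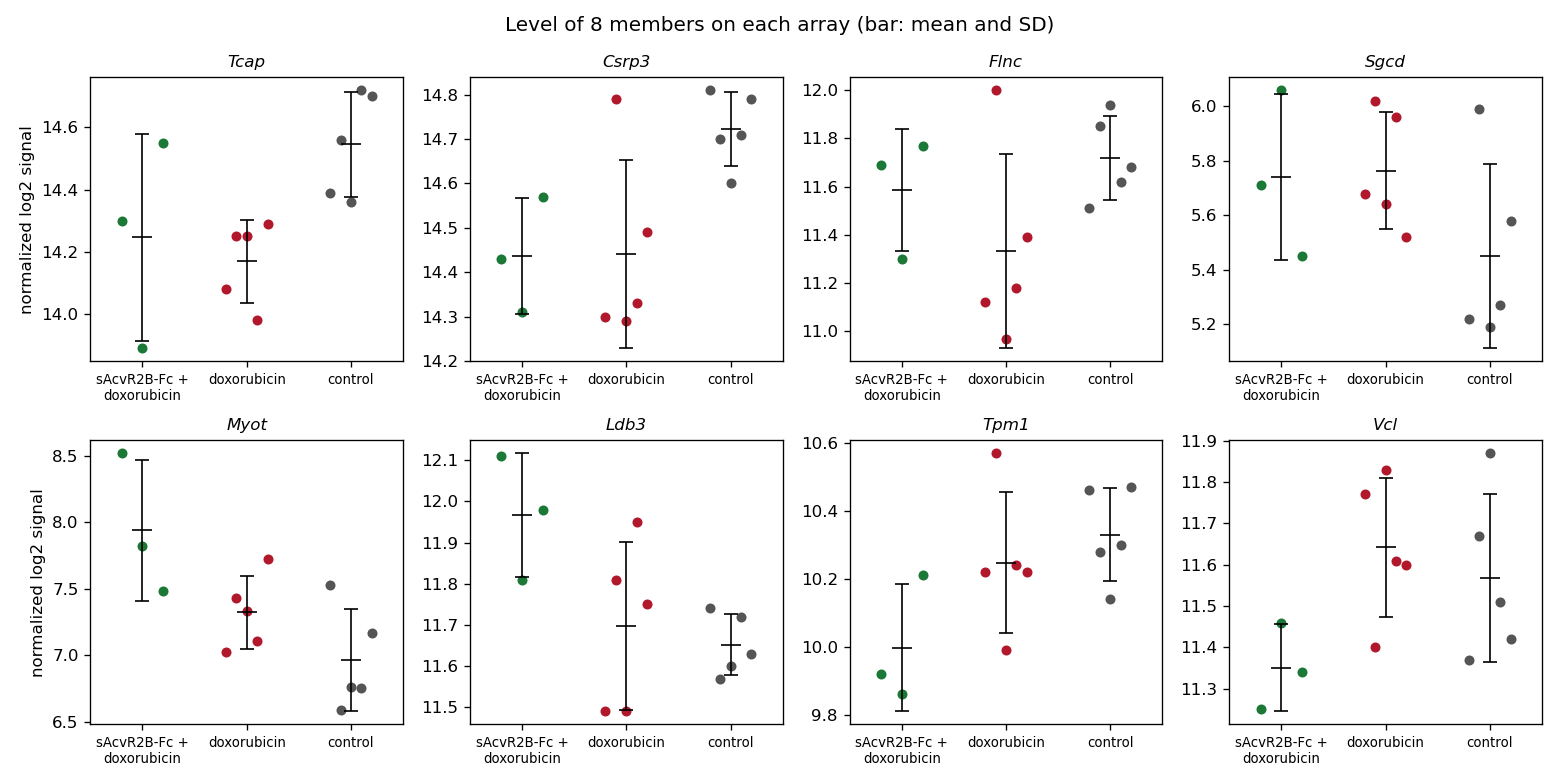
Normalized log2 signal on each array (points) for 8 members, with the group mean and SD (black), for pretreated (n = 3), doxorubicin (n = 5) and control hearts (n = 5). All 5 doxorubicin hearts lie below the controls for Tcap, and 1 doxorubicin heart stands above its group for Csrp3 and Flnc.

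Pretreated against doxorubicin hearts asks what the receptor given beforehand adds. Members with an unadjusted p under 0.05 were Myot and Ldb3, at higher levels, and Vcl, at a lower one; the smallest adjusted p was 0.400. Myot encodes myotilin, a Z-disc protein that binds alpha-actinin and filamin C. It had 8.52, 7.82 and 7.48 in pretreated hearts, against 7.02, 7.43, 7.33, 7.11 and 7.72 in doxorubicin hearts. Pretreated replicates 1 and 2 lay above all doxorubicin hearts and replicate 3 did not. The difference was 0.62 ± 0.25 (SE; limma, adjusted p = 0.400), 0.47 with the series matrix names, and 0.33 without pretreated replicate 1.

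Vcl, which encodes vinculin, an actin-binding protein of costameres and intercalated discs, had 11.25, 11.46 and 11.34 in pretreated hearts, against 11.77, 11.40, 11.83, 11.61 and 11.60 in doxorubicin hearts. Only doxorubicin replicate 2 fell among the pretreated hearts. The difference was -0.30 ± 0.13 (SE; limma, adjusted p = 0.433), and 0.00 with the series matrix names. Tpm1, which encodes alpha-tropomyosin, had 9.92, 9.86 and 10.21 in pretreated hearts, against 10.22, 10.57, 9.99, 10.24 and 10.22 in doxorubicin hearts. The difference of -0.25 ± 0.13 (SE) had an adjusted p of 0.489 in limma, and the groups overlapped through doxorubicin replicate 3. It was -0.16 with the series matrix names.

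Ldb3, which encodes the Z-disc PDZ-LIM protein ZASP, had 12.11, 11.81 and 11.98 in pretreated hearts, against 11.49, 11.81, 11.49, 11.95 and 11.75 in doxorubicin hearts. In all, 2 doxorubicin hearts reached into the pretreated range. The difference was 0.27 ± 0.12 (SE; limma, adjusted p = 0.439). All 4 passing Ldb3 probes gave a higher level in pretreated hearts, by 0.27 to 0.67, and the dimmest gave 0.67 ± 0.19 (SE; limma over all probes, adjusted p = 0.336). With the series matrix names the same 4 probes gave 0.12, 0.04, 0.01 and 0.27.

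Over the 11 Z-disc genes, 9 were higher and 2 lower in pretreated hearts, with a median of 0.09 against 0.02 over all genes. Over the 6 thin filament genes tested, 1 was higher and 5 were lower, with a median of -0.20. These medians were 0.08 and -0.06 with the series matrix names. Median scaling and cyclic loess gave 8 higher and 3 lower Z-disc genes, and 0 higher and 6 lower thin filament genes. None of the 17 passed the adjusted threshold, where 0.0865% of all genes did. By the brightest probes, no member had groups that did not overlap, against 6.98% of all genes.

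Pretreated against control hearts combines both injections, and it shares its controls with the first comparison and its pretreated arrays with the second. Myot had the smallest adjusted p of the members. It had 8.52, 7.82 and 7.48 in pretreated hearts, against 7.53, 6.59, 6.76, 6.75 and 7.17 in control hearts. Pretreated replicates 1 and 2 lay above all controls, and replicate 3 lay just under control replicate 1. The difference was 0.98 ± 0.25 (SE), or 1.97-fold, with a 95% interval of 0.44 to 1.51 on the log2 scale (limma, adjusted p = 0.0675). It crossed the threshold without control replicate 1, at 1.12 with an adjusted p of 0.0493 in limma, where 0.778% of all genes were called, and with limma's trended, robust prior, at an adjusted p that rounds to 0.05, where 2.05% were. It was 0.69 without pretreated replicate 1 (limma, adjusted p = 0.193). With the series matrix names it was 0.43 ± 0.34 (SE; limma, adjusted p = 1). Myot had a single passing probe with a median raw signal of 251.2, where the median over all probes of an array was 101.5 to 136.3.

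Ldb3 had 12.11, 11.81 and 11.98 in pretreated hearts, against 11.74, 11.57, 11.60, 11.72 and 11.63 in control hearts. All 3 pretreated hearts lay above all controls. The difference was 0.32 ± 0.12 (SE; limma, adjusted p = 0.188), and 0.08 with the series matrix names. All 4 passing Ldb3 probes were higher, by 0.27 to 0.64. With the series matrix names they gave 0.08, 0.08, -0.17 and 0.15. Csrp3 had 14.43, 14.31 and 14.57 in pretreated hearts, against 14.81, 14.70, 14.60, 14.71 and 14.79 in control hearts. All 3 pretreated hearts lay below all controls. The difference was -0.29 ± 0.12 (SE; limma, adjusted p = 0.233), and -0.08 with the series matrix names. The other 2 Csrp3 probes gave -0.27 and -0.42, and -0.03 and 0.15 with the series matrix names. By the brightest probes, these were the 2 members of 30 without overlap, where 13.9% of all genes showed none (8.06% higher and 5.81% lower). Some dimmer probes overlapped. On the Ldb3 probes ILMN_2513993 and ILMN_2713622, pretreated replicate 2 had 10.46 and 10.33, below 10.68 in control replicate 1 and 10.79 in control replicate 4. On the Csrp3 probe ILMN_2789651, pretreated replicate 1 had 12.81, above 12.51 in control replicate 4.

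Tpm1 had 9.92, 9.86 and 10.21 in pretreated hearts, against 10.46, 10.28, 10.14, 10.30 and 10.47 in control hearts. Of the pretreated hearts, replicate 3 alone reached the control range. The difference was -0.33 ± 0.13 (SE; limma, adjusted p = 0.204), and its second probe gave -0.44. The first probe gave -0.17 and the second 0.15 under the series matrix names. All 6 thin filament genes were lower in pretreated hearts, by 0.04 for Tnnc1 (cardiac troponin C) to 0.42 for Lmod2 (leiomodin 2, which lengthens thin filaments), with a median of -0.25. All 6 were also lower with median scaling, cyclic loess or no background correction. With the series matrix names 4 of the 6 kept that sign and the median was -0.10. Lmod2 lay near the detection limit: it was detected on 9 of the 13 arrays, with a median raw signal of 132.5. It was undetected in pretreated replicates 2 and 3, doxorubicin replicate 5 and control replicate 4. The second Actc1 probe gave -0.56 ± 0.25 (SE), against -0.16 for the brightest. Under the series matrix names these 2 probes gave 0.13 and 0.22. The summed neutrophil level was higher in both groups that received doxorubicin under the names of the non-normalized table, as given above, and its part in these differences was not tested.

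Within each role, the member with the brightest probe overlapped between all groups. Myl2, the ventricular regulatory light chain, had 14.36, 14.46 and 14.58 in pretreated, 14.41, 14.33, 14.53, 14.29 and 14.64 in doxorubicin and 14.24, 14.72, 14.59, 14.49 and 14.56 in control hearts. Tnnc1 had 14.67, 14.77 and 14.69 in pretreated, 14.77, 14.59, 14.56, 14.71 and 14.71 in doxorubicin and 14.79, 14.64, 14.63, 14.87 and 14.81 in control hearts. For both genes the 95% intervals stayed within 1.5-fold: the bounds farthest from 0 were -0.31 for Myl2 and -0.26 for Tnnc1. Actn2, which encodes the Z-disc crosslinker alpha-actinin 2, had 14.53, 14.69 and 14.66 in pretreated, 14.81, 14.81, 14.52, 14.72 and 14.48 in doxorubicin and 14.84, 14.52, 14.52, 14.68 and 14.72 in control hearts. Its differences were 0.01, -0.04 and -0.03, and its second probe gave -0.02, 0.13 and 0.11. The dimmest Actn2 probe gave -0.34, 0.60 and 0.26, each with an SE of 0.24 to 0.28. Under the series matrix names the brightest Actn2 probe gave 0.00, -0.18 and -0.19 and the dimmest -0.24, -0.11 and -0.35. Those of Myl2 were 0.01, 0.06 and 0.08, and those of Tnnc1 -0.05, -0.02 and -0.07. Some probes lay near the highest signals of the arrays: raw signals of Actc1, cardiac actin, reached 34441.3, where the highest signal of an array was 24453.9 to 37732.8. The scanner's range is not given, and a compression of such bright probes was not tested.

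Among the remaining thick filament genes, Myh6, the main adult myosin motor of the mouse heart, averaged 14.41 ± 0.29 in pretreated (n = 3), 14.41 ± 0.28 in doxorubicin (n = 5) and 14.54 ± 0.12 in control hearts (n = 5, SD throughout). A second Myh6 probe, of lower signal, averaged 12.46 in pretreated, 12.93 in doxorubicin and 12.97 in control hearts, with differences of -0.47 ± 0.28 in pretreated against doxorubicin and -0.51 ± 0.28 in pretreated against control (SE; limma over all probes, adjusted p = 0.532 and 0.383). It gave 0.17 and 0.22 under the series matrix names. Myl3, the ventricular essential light chain, averaged 14.45 ± 0.25 in pretreated, 14.40 ± 0.26 in doxorubicin and 14.43 ± 0.20 in control hearts. Mybpc3, cardiac myosin-binding protein C, averaged 13.45 ± 0.31 in pretreated, 13.24 ± 0.21 in doxorubicin and 13.29 ± 0.09 in control hearts. All 6 tested thick filament genes were lower in doxorubicin than in control hearts, but by at most 0.14; with median scaling 4 of the 6 were higher, and with the series matrix names 2 of the 6 kept their sign. By the series matrix names the brightest probes of Myh6 and Myl3 were higher in pretreated than in doxorubicin hearts, by 0.37 ± 0.14 and 0.30 ± 0.14 (SE; limma, adjusted p = 0.999 for both). Mylk3, the kinase that phosphorylates cardiac myosin light chain, had 3 passing probes that disagreed in pretreated against doxorubicin: -0.09, -0.72 and 0.42, and -0.08, -0.05 and -0.13 with the series matrix names. Of the M-band genes, Myom1 differed by 0.04, -0.05 and 0.00 in the 3 comparisons and Myom2 by 0.00, -0.14 and -0.13. The same probe of Myom1 gave 0.09, -0.21 and -0.12 under the series matrix names, and that of Myom2 0.41, -0.03 and 0.39. Of the Z-disc genes, desmin (Des) differed by at most 0.08, and the brightest probe of Myoz2, the calcineurin-binding calsarcin, also by at most 0.08. The second Myoz2 probe differed by -0.45 ± 0.23 in doxorubicin against control and 0.44 ± 0.26 in pretreated against doxorubicin (SE; limma over all probes, adjusted p = 0.497 and 0.541). It gave 0.19 and -0.18 with the series matrix names. Sgca, which encodes alpha-sarcoglycan, had 3 probes that were all higher in pretreated than in doxorubicin hearts, by 0.30, 0.41 and 0.36 (limma over all probes, adjusted p = 0.439 or above), and by -0.07, 0.17 and 0.27 with the series matrix names.

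Several probes of titin gave different answers from its brightest one. The brightest Ttn probe had 14.00, 14.18 and 14.00 in pretreated, 13.97, 13.89, 13.93, 14.06 and 14.12 in doxorubicin and 14.11, 14.05, 14.10, 14.20 and 14.27 in control hearts. The groups overlapped, with a difference of -0.15 ± 0.08 in doxorubicin against control, 0.06 ± 0.09 in pretreated against doxorubicin and -0.09 ± 0.09 in pretreated against control (SE). The 10 passing Ttn probes ranged from -1.03 to 0.49 in doxorubicin against control, 8 of them lower and 2 higher. They ranged from -0.88 to 0.86 in pretreated against doxorubicin and from -0.59 to 0.54 in pretreated against control. Under the series matrix names the 10 probes ranged from -0.36 to 0.15, from -0.74 to 0.25 and from -0.83 to 0.18 in the same comparisons. ILMN_1231542 turned sign in pretreated against doxorubicin, with 0.84 and, under the series matrix names, -0.74. In doxorubicin against control, the 4 Ttn probes ILMN_1226700, ILMN_1219166, ILMN_1231542 and ILMN_2744368 gave -1.03, -0.78, -0.72 and -0.70, and ILMN_1228221 gave 0.49 ± 0.15 (SE; limma over all probes, adjusted p = 0.227). Those 4 probes each had their highest control values on control replicates 4 and 5. ILMN_1231542 had 10.43 and 10.35 there, against 8.66 to 9.24 in the other controls and 8.27 to 9.32 in doxorubicin hearts. Over all 60 passing probes of the 30 members, 0 were called in any comparison. At an unadjusted p under 0.05 limma gave 8 (1 higher, 7 lower), 10 (8 higher, 2 lower) and 11 (5 higher, 6 lower) of the 60. The shares over all 18693 passing probes were 11%, 10.8% and 16.4%, each below the member probes' share. Probes of the same gene are not independent, and Ttn alone had 10 of the 60. Titin is spliced into isoforms of different length, and which transcripts each probe reads was not examined here.

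**Figure D3:**
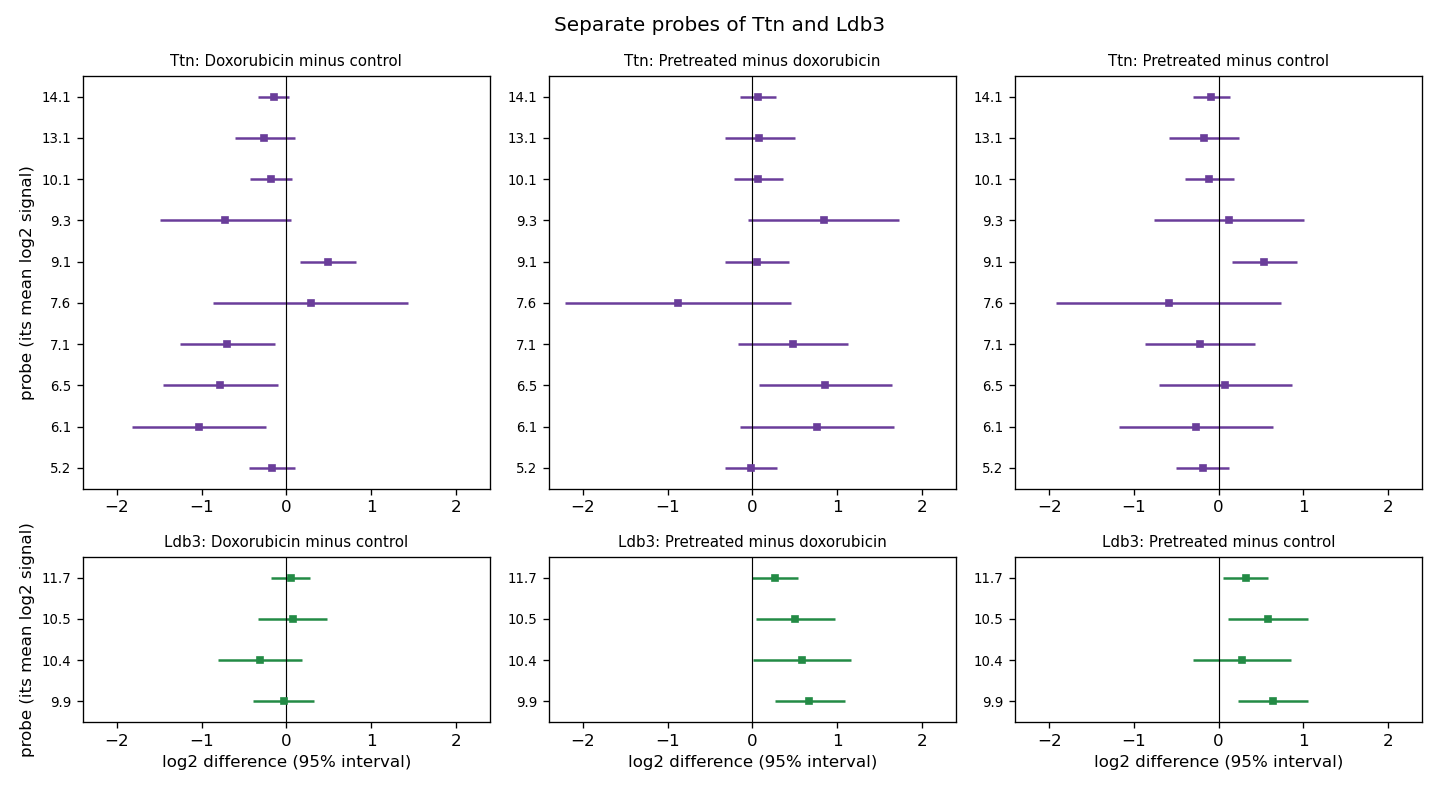
Log2 difference with its 95% interval for each passing probe of Ttn (10 probes) and Ldb3 (4 probes), in 3 comparisons; the y axis gives each probe's mean log2 signal, brightest on top. The Ttn probes fall on both sides of 0, while all 4 Ldb3 probes lie above 0 in pretreated minus doxorubicin.

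Xirp2, whose protein binds actin and alpha-actinin at intercalated discs, varied most within groups. It had 11.79, 11.40 and 11.28 in pretreated, 11.94, 12.42, 12.21, 12.18 and 11.42 in doxorubicin and 12.09, 12.19, 12.16, 11.10 and 11.15 in control hearts. The 5 low arrays were pretreated replicates 2 and 3, doxorubicin replicate 5 and control replicates 4 and 5. The differences were -0.54 ± 0.29 in pretreated against doxorubicin (limma, adjusted p = 0.490), -0.25 ± 0.29 in pretreated against control and 0.29 ± 0.25 in doxorubicin against control (SE). With the series matrix names they were 0.00, -0.01 and -0.01.

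The Ttn probe ILMN_2443220 had its 5 lowest values on the same 5 arrays, a comparison made after the values were seen. It had 8.22, 6.44 and 6.46 in pretreated, 7.77, 8.19, 8.23, 8.75 and 6.67 in doxorubicin and 8.48, 8.65, 8.25, 6.65 and 6.15 in control hearts. ILMN_1219166 ran the opposite way on 4 of the 5: it had 6.31, 7.10 and 7.11 in pretreated, 6.32, 5.63, 5.62, 6.64 and 5.65 in doxorubicin and 6.27, 6.40, 6.07, 7.57 and 7.47 in control hearts. The 5 low arrays of Xirp2 and ILMN_2443220 cut across all 3 labelled groups. The 4 high arrays of ILMN_1219166 were pretreated replicates 2 and 3 and control replicates 4 and 5, with no doxorubicin heart among them. The labels name no batch, and a batch as the source was not tested.

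**Figure D4:**
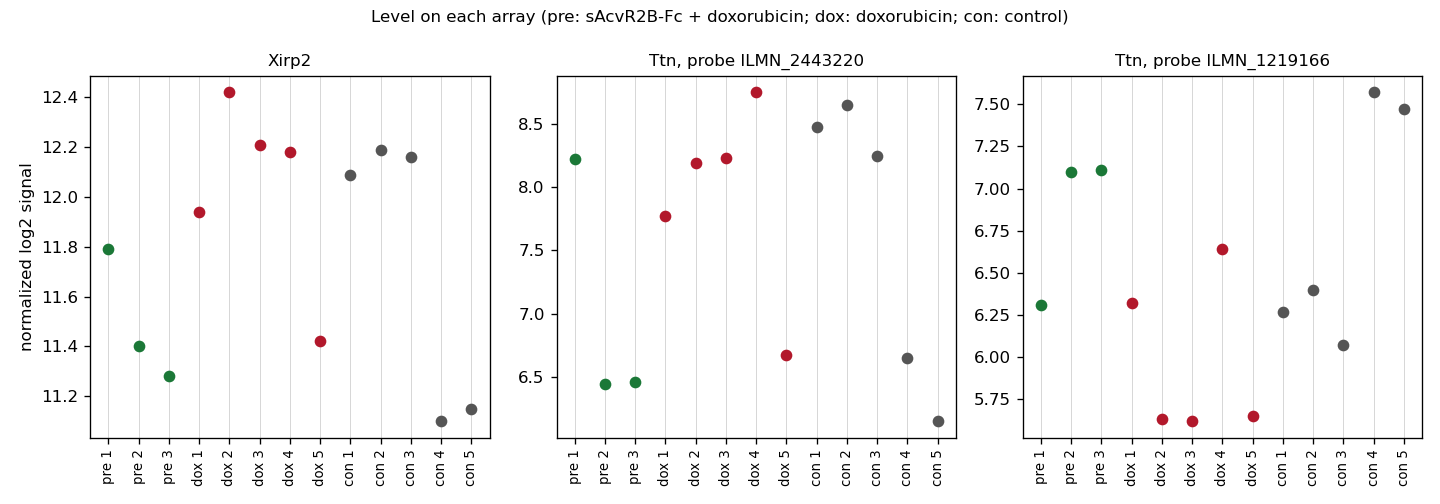
Normalized log2 signal of Xirp2 and of 2 Ttn probes on each of the 13 arrays, with pretreated arrays on the left, then doxorubicin and control arrays. Xirp2 and ILMN_2443220 are lowest on the same 5 arrays, and ILMN_1219166 is highest on 4 of these.

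Other genes of the same structures, 85 from 5 lists, were set beside them. Of the 66 tested, 0 were called in any comparison. At an unadjusted p under 0.05, limma gave 2 higher and 9 lower in doxorubicin against control, 4 higher and 3 lower in pretreated against doxorubicin and 4 higher and 11 lower in pretreated against control. These were 16.7%, 10.6% and 22.7% of the 66, against 12.2%, 11.3% and 18.3% of all genes. Under the series matrix names 0, 3 and 2 of the 66 reached that level, and 44, 31 and 32 kept their sign. Over all 10410 genes, 6757, 5352 and 5572 kept theirs. With the names used here the median differences of the 66 were -0.07, -0.02 and -0.11. In both comparisons with control, the single smallest p-value was that of a gene in the list of other costamere and dystrophin complex genes. In doxorubicin against control, the p-value of Tnnt1, from another list and described below, lay between those of Plec and Sgcb. Plec, which encodes the crosslinker plectin, differed by -0.57 ± 0.15 and Sgcb, beta-sarcoglycan, by -0.40 ± 0.11 in doxorubicin against control (SE; limma, adjusted p = 0.146 and 0.152). In pretreated against control, Lama2, which encodes the laminin chain bound by dystroglycan, differed by -0.42 ± 0.10 (limma, adjusted p = 0.0585) and Synm, the intermediate filament protein synemin, by -0.67 ± 0.17 (limma, adjusted p = 0.0675). Under the series matrix names Plec and Sgcb differed by -0.11 and -0.04 and Lama2 and Synm by -0.02 and -0.19.

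Among other sarcomere isoforms, Tnnt1, the slow skeletal troponin T, differed by -0.38 ± 0.10 in doxorubicin against control and by 0.42 ± 0.12 in pretreated against doxorubicin (SE; limma, adjusted p = 0.146 and 0.287). These 2 comparisons share the doxorubicin arrays. By the series matrix names Tnnt1 differed by -0.22 and 0.18. Myh7, the slow myosin motor, differed by 0.45 ± 0.22 in doxorubicin against control, Tmod3, a pointed-end cap of actin, by -0.34 ± 0.10 in pretreated against control, and Cfl2, muscle cofilin, by 0.59 ± 0.20 there (SE; limma, adjusted p = 0.441, 0.0935 and 0.133). The series matrix names gave 0.22 for Myh7, -0.05 for Tmod3 and, with the sign turned, -0.19 for Cfl2. Of other Z-disc genes, Bag3, which encodes a chaperone partner, differed by 0.24 ± 0.08 in doxorubicin against control (SE; limma, adjusted p = 0.231), and by 0.02 with the series matrix names. Of the turnover genes, Trim63, the ubiquitin ligase MuRF1, differed by -0.51 ± 0.18 in pretreated against control (SE; limma, adjusted p = 0.156), and with the sign turned, by 0.31, with the series matrix names. Of the transcription factors, Mef2c differed by -0.65 ± 0.24 in doxorubicin against control and by -0.74 ± 0.28 in pretreated against control, and Tbx5 by 0.54 ± 0.19 in the first of these (SE; limma, adjusted p = 0.285, 0.184 and 0.238). The series matrix names gave -0.05 and, with the sign turned, 0.34 for Mef2c, and 0.41 for Tbx5. The median of these 66 genes in pretreated against control was 0.02 with the series matrix names.

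The series matrix names leave no gene called in any of the 3 comparisons, for members or for all genes. At an unadjusted p under 0.05, limma then gave 1 of 30 members and 1.58% of all genes in doxorubicin against control, 2 members and 3.11% in pretreated against doxorubicin, and 1 member and 3.44% in pretreated against control. Of the 30 members, 18 kept the sign of their difference in doxorubicin against control, 23 in pretreated against doxorubicin and 19 in pretreated against control. Over all 10410 genes, 6757, 5352 and 5572 kept theirs. Since 7 of the 13 arrays stay in the same group under both sets of names, the 2 sets of differences are not independent. The largest change of a single member's difference was 0.46, 0.56 and 0.58 in the same order. By their brightest probes, Myot, Ldb3 and Tpm1 kept their sign in both comparisons with pretreated hearts, and Csrp3 in both comparisons with control. Other probes did not all do so. The second Tpm1 probe turned from -0.27 to 0.25 against doxorubicin and from -0.44 to 0.15 against control. In pretreated against control, ILMN_2713622 of Ldb3 turned from 0.27 to -0.17 and ILMN_2789651 of Csrp3 from -0.42 to 0.15.

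**Figure D5:**
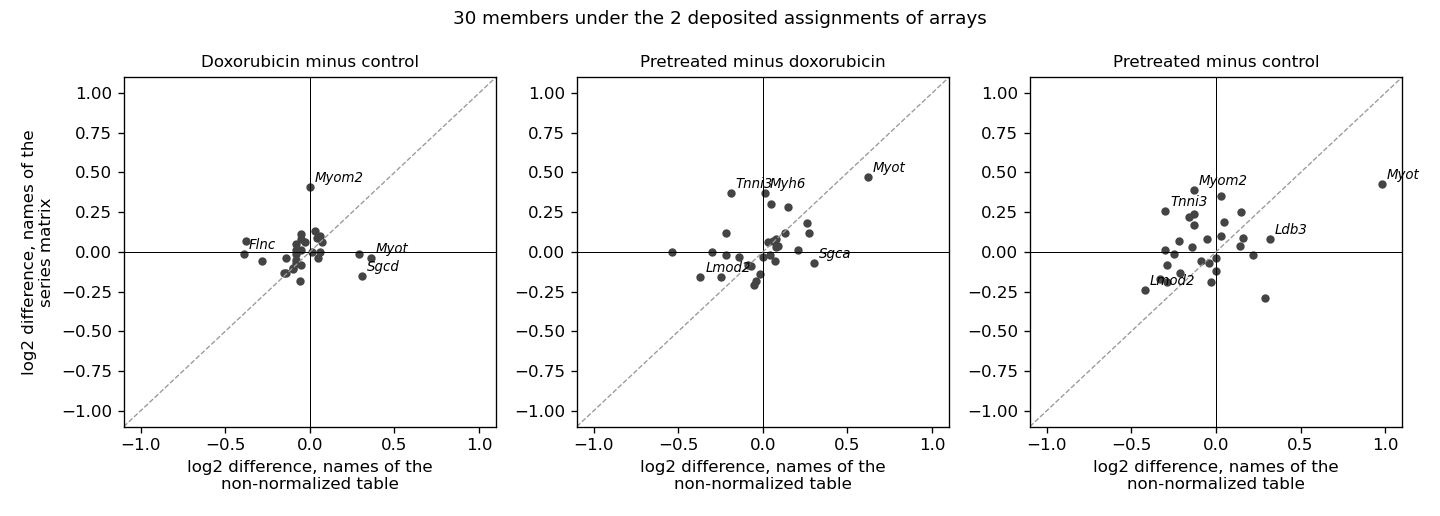
Log2 difference of each of the 30 members with the array names of the non-normalized table (x axis) against those of the series matrix (y axis), in 3 comparisons; the dashed line marks equal values. Most points lie nearer to 0 on the y axis, and Myot is higher in pretreated hearts under both.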

How the data were processed

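Biotin-labelled cRNA from 13 hearts was hybridised to Illumina mouse BeadChips, per the labels. The deposited non-normalized table gives 1 signal intensity per probe and array and a detection p-value for each, per the file headers; the deposited series matrix holds intensity values the authors had processed further, by steps not given in the sources used here, and served only in alternatives (values under 1 set to 1). Intensities were background-corrected from detection p-values, quantile-normalized and log2-transformed with neqc (limma 3.58.1, R 4.3.3, offset 16), so the log2 values derive from the deposited signals. Of 45281 probes, 18693 passed, and each gene took its passing probe of highest mean. The 3 groups entered 1 limma fit without covariates; p-values are two-sided and Benjamini-Hochberg adjusted over 10410 genes, or over all passing probes where stated. Calls need an adjusted p under 0.05. The fit was tested on simulated data. Each of the 13 arrays was taken as 1 mouse, and their number limits the precision.

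The members and all lists were chosen with earlier results of these data known. Values on every array are given for the 4 members with the smallest unadjusted p in each comparison and the brightest of each role, and of each other list the 2 genes of smallest p per comparison could be named. Replicate numbers do not pair the samples: over 11 same-numbered pairs the correlation of deviations ran from -0.245 to 0.386, with 4 over 0.1. Alternatives covered the array names, background correction, scaling, filters, probe choice, test settings, a replicate block and leaving out each array.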

Additional observations from a re-analysis of the deposited data

Results flagged for a closer look

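Within groups of 5 hearts, 3 of 60 member-and-group sets held a single array that stood apart from the rest by Dixon's test at the 95% level, and chance alone gives about 1 in 20. Nebl, which encodes the Z-disc protein nebulette and was detected on 6 of 13 arrays, had 5.55 in doxorubicin replicate 3, and the other 4 doxorubicin hearts lay between 5.04 and 5.15. Synpo2l, which encodes an actin-binding Z-disc protein, had 8.96 in doxorubicin replicate 2, against 8.25 to 8.43 in the other doxorubicin hearts; this is the array that stood within the control range for Csrp3 and above it for Flnc. Pdlim5, a PDZ-LIM protein of the Z-disc, had 10.42 in control replicate 1, against 10.68 to 10.74 in the other controls.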

How the results depend on the processing

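The array names changed most. With the series matrix names, on either table's values, 0 genes were called in each comparison. Tcap then differed by 0.07 in doxorubicin against control, Sgcd by -0.15 (by -0.21 on the series matrix values) and Vcl in pretreated against doxorubicin by 0.00; the members' median in pretreated against control was 0.04 and 0.05. With only the 7 arrays whose group is the same under either set of names (including a lone pretreated array, assumed to vary like the others), 0, 4 and 6 genes were called, and the medians with pretreated hearts were 0.08 against doxorubicin and 0.00 against control. The genes called in doxorubicin against control were 42 without background correction, 38 with detection on all 13 arrays and 39 with trended, robust eBayes; in pretreated against control they were 243 without background correction, 25 with median scaling and 213 with trended, robust eBayes, where 1 member, Myot, was called at an adjusted p that rounds to 0.05. Median scaling gave member medians of 0.05 in doxorubicin against control and -0.06 in pretreated against doxorubicin; cyclic loess gave -0.07 in pretreated against doxorubicin and -0.14 in pretreated against control. With a replicate block, 4, 64 and 210 genes and 0 members were called. Leaving out 1 array at a time, genes called ran from 3 to 332, from 6 to 11 and from 25 to 294, members called from 0 to 2, 0 to 0 and 0 to 1, and medians from -0.07 to -0.03, -0.01 to 0.06 and -0.11 to -0.03. Causes were not tested.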
